A study of Mus musculus with 12 samples.

Results

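The mitochondrial ribosomal protein genes, the Mrpl genes of the large subunit and the Mrps genes of the small subunit, were followed through silencing of Ehd1 and through lipopolysaccharide (LPS) treatment in mouse macrophages. Members were the genes whose symbol consists of Mrpl or Mrps, a number and at most one further letter, and that had 10 or more counts in 3 or more of the 12 libraries. All 77 genes with such a symbol met the count rule and were tested, 48 with a large subunit symbol and 29 with a small subunit symbol. They stood among 24421 genes in the count tables, of which 12164 were tested.

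Poly(A)-selected RNA was sequenced from bone marrow-derived macrophages (BMDMs), primary cells grown from the marrow of male C57BL/6J mice aged 8 weeks. The 4 groups of 3 libraries were LPS-treated cells with siEhd1 (labelled M1), LPS-treated cells with siControl (M1), resting cells with siEhd1 (M0) and resting cells with siControl (M0). LPS is a bacterial cell wall component that activates macrophages, siEhd1 is a small interfering RNA against Ehd1, which encodes a membrane-remodelling protein of endosomal recycling, and siControl is the control RNA given to the other cells of each state. The LPS dose, the duration and the number of animals are not given in the labels, nor whether replicates were separate cultures, so p-values cover only how far these libraries differ among themselves, possibly for technical reasons.

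The mitochondrial ribosome translates the few messages encoded by mitochondrial DNA, which specify membrane subunits of the respiratory chain and of ATP synthase. Its RNAs come from mitochondrial DNA, whereas all of its proteins are encoded in the nucleus, made in the cytosol and imported. Some of these proteins descend from bacterial ribosomal proteins, and others are found only in mitochondrial ribosomes. In macrophages, LPS is known to shift energy metabolism from respiration towards glycolysis.

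Library totals ranged from 18572725 to 22545272 counts, and the members took 0.127% to 0.152% of them. No member had fewer than 56 counts in any library. Values below are CPM, counts scaled to a common normalized library size, and a gene was called higher or lower at a Benjamini-Hochberg adjusted p under 0.05 over all tested genes in edgeR's quasi-likelihood test. Ehd1 averaged 302 CPM in siEhd1 and 620 CPM in siControl cells under LPS, and 31.5 CPM in siEhd1 and 53.3 CPM in siControl cells at rest. The macrophage markers summed to 20160 CPM or more in every library, the neutrophil markers to 4.21 CPM or less and the lymphocyte markers to 0.484 CPM or less. Over all libraries the dendritic markers summed to 75.7 to 408 CPM, the osteoclast markers to 164 to 638 CPM and the stromal markers to 1.79 to 29.3 CPM. Resting and LPS-treated libraries were deposited in separate tables, and any difference in handling between them cannot be told apart from LPS.

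Promoter windows are shown for the 4 members that later results turn on: Mrpl52 and Mrpl45, which had the largest LPS effects, Mrps6, which fell most with LPS, and Mrpl33, which rose most with siEhd1 at rest. Each window holds 250 bases before and 50 bases after a RefSeq transcription start on build GRCm38.p6, 5′ to 3′ on the plus strand. They lie at chr14:54426659-54426958 for Mrpl52, chr11:97315466-97315765 for Mrpl45, chr16:92058086-92058385 for Mrps6 and chr5:31613701-31614000 for Mrpl33. Capitals mark matches, on either strand, to the core letters CCGGAAG of ETS factors such as GABP, GCATGCG of NRF1, both known as activators of nuclear genes for mitochondrial proteins, the GC box GGGCGGG or the E-box CACGTG.
Mrpl52 promoter: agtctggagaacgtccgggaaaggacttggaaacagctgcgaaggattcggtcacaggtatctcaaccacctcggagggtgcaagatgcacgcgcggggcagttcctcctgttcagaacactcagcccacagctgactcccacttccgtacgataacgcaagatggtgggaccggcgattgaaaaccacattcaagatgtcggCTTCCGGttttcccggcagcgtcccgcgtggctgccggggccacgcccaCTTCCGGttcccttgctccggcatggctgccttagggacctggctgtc
Mrpl45 promoter: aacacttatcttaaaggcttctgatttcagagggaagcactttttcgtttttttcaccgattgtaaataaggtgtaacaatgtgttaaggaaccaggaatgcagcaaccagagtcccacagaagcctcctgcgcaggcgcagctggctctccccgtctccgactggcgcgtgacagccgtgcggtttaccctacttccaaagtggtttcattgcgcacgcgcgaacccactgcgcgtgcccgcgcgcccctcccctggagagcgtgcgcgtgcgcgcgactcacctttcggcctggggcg
Mrps6 promoter: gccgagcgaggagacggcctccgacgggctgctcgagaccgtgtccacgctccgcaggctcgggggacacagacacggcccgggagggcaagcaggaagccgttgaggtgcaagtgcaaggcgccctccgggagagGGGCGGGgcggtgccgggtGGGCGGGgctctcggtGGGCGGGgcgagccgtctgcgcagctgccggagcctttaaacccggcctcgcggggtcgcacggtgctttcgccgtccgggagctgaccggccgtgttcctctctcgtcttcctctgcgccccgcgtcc
Mrpl33 promoter: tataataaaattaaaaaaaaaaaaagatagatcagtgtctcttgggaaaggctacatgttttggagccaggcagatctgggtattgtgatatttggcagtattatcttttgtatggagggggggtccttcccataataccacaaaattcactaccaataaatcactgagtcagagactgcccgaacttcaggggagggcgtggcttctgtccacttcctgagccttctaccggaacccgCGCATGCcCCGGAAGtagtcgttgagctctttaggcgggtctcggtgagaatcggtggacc

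The Mrpl52 window held 2 ETS cores, the Mrps6 window 3 GC boxes, and the Mrpl33 window an NRF1 core next to an ETS core. The annotated gene model of Mrpl33 also holds a start further upstream. None of the 4 words occurred in the Mrpl45 window. RefSeq windows were found for 68 members, 74 windows in all. The ETS core occurred in 33.8% of member windows against 8.9% of all 32851 promoter windows of the same length, the GC box in 43.2% against 25.6%, the NRF1 core in 10.8% against 3.6%, and the E-box in 9.5% against 7.2%. ETS cores were present in 29.8% of large subunit and 40.7% of small subunit windows. These are letter matches and not measured binding. The 32851 windows cover 27025 genes, more than were tested here, and the shares over the tested genes alone were not computed. Members with an ETS core had a median LPS effect, as log2 fold change, of 0.26 in siEhd1 and 0.38 in siControl cells, and those without one 0.26 in siEhd1 and 0.34 in siControl cells.

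Levels of the members differed over a wide range. Mean levels per kilobase of annotated exon ran from 0.922 to 39.5 CPM per kilobase, with a median of 7.29. Among small subunit genes the highest were Mrps21 (39.5), Mrps23 (20.4) and Mrps18c (18.9), all in CPM per kilobase, and the lowest were Mrps35 (0.922), Mrps10 (1.33) and Mrps22 (2.03). Among large subunit genes Mrpl34 (29.2), Mrpl27 (25.8) and Mrpl54 (23.9 CPM per kilobase) were highest and Mrpl47 (1.32), Mrpl13 (1.63) and Mrpl32 (1.77 CPM per kilobase) lowest. The length is the union of all annotated exons of a gene, which reached 8631 bases for Mrps35 and 739 bases for Mrps21, so it lowers the value of genes with rarely used long exons.

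In counts scaled by edgeR's TMM factors, which offset differences in library composition, LPS-treated cells carried more message for most mitochondrial ribosomal proteins than resting cells, with either small interfering RNA. In siEhd1 cells 48 of the 77 members rose and 3 fell, and in siControl cells 59 rose and 2 fell. Over all tested genes 32.9% were called higher and 34% lower in siEhd1 cells, and 34.8% higher and 34% lower in siControl cells. The effects were mostly modest: the median log2 fold change of the members was 0.26 in siEhd1 and 0.34 in siControl cells, against -0.02 and -0.01 over all genes, and 10 members in siEhd1 and 25 in siControl cells had values beyond 0.5 in either direction. Of the 12164 tested genes, 4962 in siEhd1 and 5116 in siControl cells had values beyond 0.5. Positive values were seen for 68 members (88.3%) in siEhd1 cells and 71 (92.2%) in siControl cells. Over all tested genes these shares were 48.6% in siEhd1 and 49.1% in siControl cells. In bulk RNA, more message per cell and a different mix of cells cannot be told apart.

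Marker genes of cell states and of other cell types moved with LPS as well, and their part in the members' values was not tested. Of 20 cell cycle markers, 20 fell in siEhd1 cells, with sums of 610 to 623 CPM with LPS against 1146 to 1368 CPM at rest. In siControl cells 10 fell and 1 rose, with sums of 418 to 462 CPM with LPS against 511 to 697 CPM at rest. Of 7 osteoclast markers tested, 4 fell and 2 rose in siEhd1 cells (sums of 230 to 257 CPM with LPS against 558 to 638 CPM at rest), and 5 fell and 2 rose in siControl cells (164 to 193 CPM with LPS against 443 to 549 CPM at rest). Both sums were lower in every LPS-treated library than in the resting libraries with the same small interfering RNA, and the stromal and macrophage sums were higher. Of 6 stromal markers tested, 4 rose in both, and their sums were 15.7 to 24.2 CPM with LPS against 1.79 to 5.77 CPM at rest in siEhd1 cells, and 11.8 to 29.3 CPM with LPS against 2.63 to 7.46 CPM at rest in siControl cells. Of 10 macrophage markers, 7 rose and 2 fell in siEhd1 cells and 6 rose and 2 fell in siControl cells. They summed to 35700 to 37450 CPM with LPS against 20160 to 21540 CPM at rest in siEhd1 cells, and to 32690 to 39210 CPM with LPS against 24230 to 24920 CPM at rest in siControl cells. No cell cycle, stromal or macrophage marker was at 0 in any group, and 1 of 9 osteoclast markers was at 0 in each group except LPS-treated siEhd1 cells. The dendritic markers summed to 97.25 to 98.6 CPM with LPS against 283 to 360 CPM at rest in siEhd1 cells. In siControl cells they summed to 75.7 to 108 CPM with LPS against 270 to 408 CPM at rest. Of 2 dendritic markers tested, 1 rose and 1 fell in both. The neutrophil markers summed to 3.69 to 4.21 CPM with LPS against 0.299 to 0.769 CPM at rest in siEhd1 cells. In siControl cells the sums were 3.16 to 3.85 CPM and 0.395 to 1.15 CPM.

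On the TMM scale the summed level of each subunit was higher in every LPS-treated library than in any resting one. Large subunit genes summed to 1060, 1034 and 1037 CPM in LPS-treated siEhd1 libraries, against 849, 822 and 815 CPM in resting siEhd1 libraries. In siControl cells they summed to 1095, 1034 and 1014 CPM with LPS, against 763, 778 and 795 CPM at rest. For the small subunit the sums averaged 533 ± 3.08 CPM with LPS and 465 ± 7.48 CPM at rest in siEhd1 cells, and 530 ± 20.3 CPM with LPS and 433 ± 11.8 CPM at rest in siControl cells (SD, n = 3 each). With library totals alone as scaling, an alternative chosen for these sums after seeing the data, the small subunit overlapped in siEhd1 cells, at 500, 486 and 500 CPM with LPS against 517, 492 and 505 at rest. In siControl cells it then averaged 493 ± 17.8 with LPS and 461 ± 8.89 at rest, in CPM of library totals (SD, n = 3 each). The large subunit averaged 970 ± 20.9 with LPS and 899 ± 25.1 at rest in siEhd1 cells, and 974 ± 30.4 with LPS and 830 ± 13.2 at rest in siControl cells, in CPM of library totals (SD, n = 3 each), and its states did not overlap in either.

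**Figure D1:**
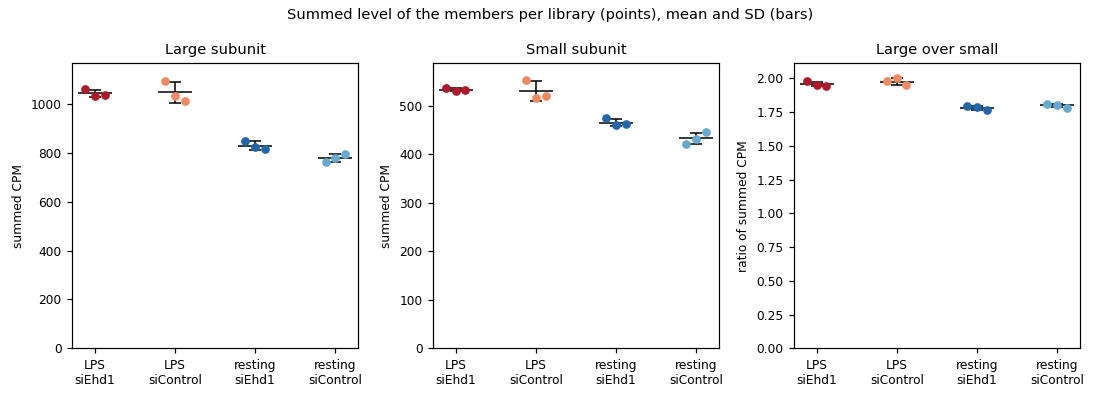
Summed TMM-scaled CPM of the 48 large subunit genes, of the 29 small subunit genes and their ratio in each library (points), with the mean and SD of the 3 libraries (bars). The 6 LPS-treated libraries lie above the 6 resting libraries in all 3 panels; with library totals alone, the small subunit sums overlap in siEhd1 cells.

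Members of both subunits rose, and the ratio of their summed levels, large over small, was higher in every LPS-treated library than in any resting one. In siEhd1 cells 35 large subunit genes were called higher and 1 lower with a median log2 fold change of 0.28, and 13 small subunit genes were called higher and 2 lower with a median of 0.19. In siControl cells 40 large subunit genes were called higher and 1 lower with a median of 0.37, and 19 small subunit genes were called higher and 1 lower with a median of 0.31. The ratio of the summed CPM, large over small, was 1.96 ± 0.0178 in LPS-treated and 1.78 ± 0.0145 in resting siEhd1 cells, and 1.98 ± 0.0248 in LPS-treated and 1.80 ± 0.0136 in resting siControl cells (SD, n = 3 each).

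The mean ratio was 0.177 higher with LPS, and much of that lay in 2 genes. Without Mrpl52 the difference was 0.142, and without Mrpl52 and Mrpl45 it was 0.0693, which left the LPS-treated ratios at 1.78 in both siRNA groups, against 1.71 in resting siEhd1 and 1.72 in resting siControl cells. Mrps18a and Mrps30 carry small subunit symbols but their proteins sit in the large subunit, and Mrps36 is now known as a component of the 2-oxoglutarate dehydrogenase complex. With those assignments the difference was 0.204. The difference between the subunits' median log2 fold changes was 0.09 in siEhd1 and 0.06 in siControl cells. It became 0.15 without LPS-treated siEhd1 replicate 2, 0.12 without LPS-treated siControl replicate 3, and 0.18 without resting siControl replicate 3.

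**Figure D2:**
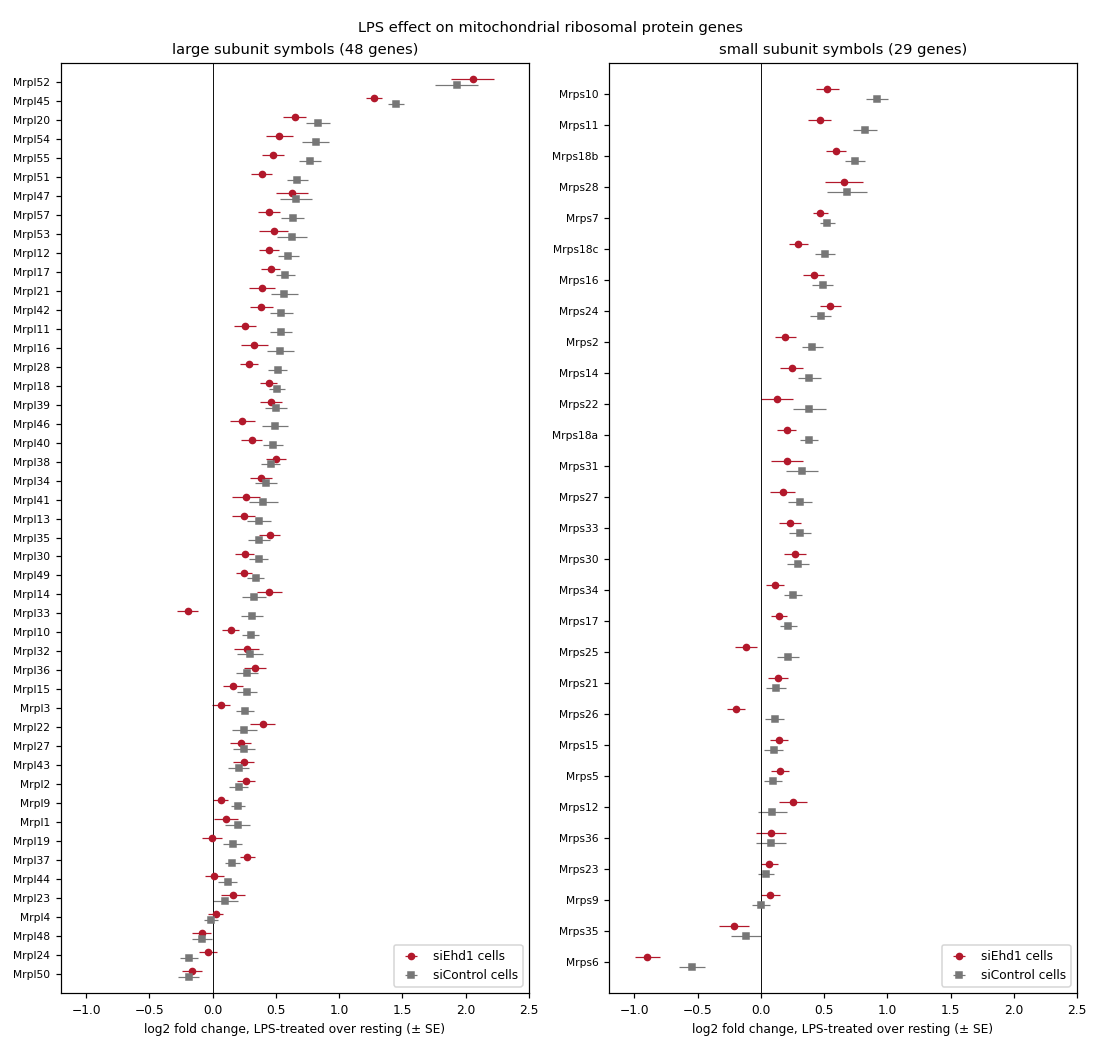
Log2 fold change of LPS-treated over resting cells with its standard error for each member, in siEhd1 cells (circles) and siControl cells (squares), ordered by the siControl value. Mrpl52 and Mrpl45 lie to the right of all other members, and Mrps6 lies furthest to the left.

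Mrpl52, a protein found only in mitochondrial large subunits, had the largest fold change. It measured 27.8, 25.4 and 29.9 CPM in LPS-treated and 7.26, 4.87 and 7.83 CPM in resting siEhd1 libraries, and 31.1, 26.9 and 20.8 CPM in LPS-treated and 6.43, 6.67 and 7.59 CPM in resting siControl libraries. The LPS-treated libraries all stood far above the resting ones. Log2 fold changes were 2.05 ± 0.17 (SE, adjusted p = 2e-07) in siEhd1 and 1.93 ± 0.17 (SE, adjusted p = 3.7e-07) in siControl cells. The next gene on the same strand, Mmp14, begins 1856 bases downstream of Mrpl52 on chromosome 14, and encodes a membrane-anchored matrix metalloproteinase. Mmp14 averaged 1014 CPM in LPS-treated and 0.996 CPM in resting siEhd1 cells, and 1066 CPM in LPS-treated and 1.77 CPM in resting siControl cells. Whether reads from that neighbour entered the Mrpl52 counts was not tested.

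Mrpl45 lies at the polypeptide exit of the large subunit, where it anchors the ribosome to the inner membrane, and had the highest mean level of all members at 49.4 CPM. LPS-treated siEhd1 libraries held 65.5, 66.3 and 66.1 CPM, and resting siEhd1 libraries 26.5, 28.6 and 26.6 CPM. LPS-treated siControl libraries held 82.3, 75.4 and 71.6 CPM, and resting siControl libraries 27.5, 28.6 and 27.9 CPM. The states were widely separated. Log2 fold changes were 1.28 ± 0.0599 (SE, adjusted p = 9.3e-14) in siEhd1 and 1.45 ± 0.0595 (SE, adjusted p = 9.5e-15) in siControl cells.

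Among the other large subunit genes, Mrpl20, whose bacterial homologue is an early assembly protein, rose by 0.65 on the log2 scale in siEhd1 cells (adjusted p = 2.8e-06) and by 0.83 in siControl cells (adjusted p = 1.3e-07). It measured 30.6, 27.9 and 28.5 CPM in LPS-treated and 18.5, 17.9 and 19.1 CPM in resting siEhd1 libraries. Mrpl18, a homologue of the bacterial protein that binds ribosomal 5S RNA, averaged 32.3 CPM with LPS and 23.8 CPM at rest in siEhd1 cells and 31.1 CPM with LPS and 21.8 CPM at rest in siControl cells, with log2 fold changes of 0.44 in siEhd1 (adjusted p = 4.4e-06) and 0.51 in siControl cells (adjusted p = 6.6e-07). Mrpl12 belongs to the stalk that recruits translation factors. Its level rose by 0.44 in siEhd1 (adjusted p = 4.4e-05) and by 0.60 in siControl cells (adjusted p = 1.2e-06), again on the log2 scale.

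The small subunit genes with the strongest LPS effects included Mrps10, Mrps11 and Mrps7, homologues of bacterial proteins of the subunit's head and platform. Mrps10 measured 12.3, 12.6 and 13.1 CPM in LPS-treated and 9.44, 8.50 and 8.52 CPM in resting siEhd1 libraries, and 14.2, 14.9 and 13.4 CPM in LPS-treated and 6.91, 7.98 and 7.55 CPM in resting siControl libraries. Its log2 fold changes were 0.53 ± 0.0895 (SE, adjusted p = 2.9e-05) in siEhd1 and 0.92 ± 0.0901 (SE, adjusted p = 1.4e-08) in siControl cells, and the test of their difference gave -0.39 with an adjusted p of 0.075. Mrps11 rose by 0.47 in siEhd1 and 0.82 in siControl cells on the log2 scale, and Mrps7 by 0.47 in siEhd1 and 0.53 in siControl cells, all with adjusted p of 1.4e-04 or less. Mrps28, the least abundant member at 4.39 CPM, had log2 fold changes of 0.66 in siEhd1 (adjusted p = 6.3e-04) and 0.68 in siControl cells (adjusted p = 8.9e-04). The decoding site protein Mrps12 did not pass the test in either, with log2 fold changes of 0.26 in siEhd1 (adjusted p = 0.051) and 0.09 in siControl cells (adjusted p = 0.48). In siEhd1 cells its adjusted p ran from 0.018 to 0.81 over the settings, and it was called in 8 of the 19 alternative fits: with RLE size factors, without a low count filter, with the replicate number as a block, and without resting siEhd1 replicate 3 (0.022), LPS-treated siEhd1 replicate 2 (0.018), resting siControl replicate 1 (0.05) or LPS-treated siControl replicate 1 (0.033) or 3 (0.046).

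The 3 genes of the Mrps18 family, vertebrate paralogs that occupy different places in the ribosome, all rose in both on the TMM scale. Mrps18b had log2 fold changes of 0.60 in siEhd1 and 0.74 in siControl cells, Mrps18c of 0.29 in siEhd1 and 0.51 in siControl cells, and Mrps18a of 0.20 in siEhd1 and 0.38 in siControl cells. With library totals alone as scaling, Mrps18a had -0.02 in siEhd1 cells (adjusted p = 0.82, and 0.0072 to 0.82 over all settings) and Mrps18c had 0.07 (adjusted p = 0.41, and 0.001 to 0.41 over all settings), and neither was called there. Mrps18a was also not called in siEhd1 cells without LPS-treated siEhd1 replicate 3. Mrps30, the other large subunit protein with a small subunit symbol, rose by 0.27 in siEhd1 and by 0.29 in siControl cells on the log2 scale. With library totals alone it was called in neither, with 0.04 in siEhd1 cells (adjusted p = 0.68, and 0.0055 to 0.68 over all settings) and 0.10 in siControl cells (adjusted p = 0.34, and 0.0015 to 0.34), and in siEhd1 cells it was also lost without resting siEhd1 replicate 1 or LPS-treated siEhd1 replicate 2. Mrps36 had log2 fold changes of 0.08 in both and was not called. By descent, the median LPS effect of the 19 large subunit genes without a bacterial homologue was 0.38 in siEhd1 and 0.49 in siControl cells, and that of the 29 with one was 0.26 in siEhd1 and 0.31 in siControl cells, as log2 fold changes. Among genes with small subunit symbols the order was the other way round. The 13 not listed with a bacterial homologue had medians of 0.13 in siEhd1 and 0.29 in siControl cells. The 16 listed with one had 0.25 in siEhd1 and 0.40 in siControl cells. Those 13 were taken by symbol and include Mrps18a, Mrps30 and Mrps36, whose proteins are placed outside the small subunit above, and also Mrps18b. The 13 are therefore not a set of small subunit proteins alone, and the medians were not computed without those genes.

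Few members fell with LPS, and Mrps6, a homologue of a bacterial platform protein, fell most. It measured 7.12, 6.92 and 7.40 CPM in LPS-treated and 12.6, 12.7 and 14.5 CPM in resting siEhd1 libraries, and 6.31, 7.19 and 7.23 CPM in LPS-treated and 9.07, 10.4 and 10.7 CPM in resting siControl libraries. Its states did not overlap with either RNA. Log2 fold changes were -0.90 ± 0.10 (SE, adjusted p = 1.1e-07) in siEhd1 and -0.54 ± 0.103 (SE, adjusted p = 9.8e-05) in siControl cells. Slc5a3, the gene of a myo-inositol transporter, shares 159 exon bases on the same strand with Mrps6, which is 10.4% of the exon length of Mrps6. Slc5a3 had log2 fold changes of -2.55 in siEhd1 and -2.82 in siControl cells, and its part in the Mrps6 counts was not tested.

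The other falls were small and their calls depended on the settings. Mrpl33 had a log2 fold change of -0.20 (adjusted p = 0.042) and Mrps26 of -0.19 (adjusted p = 0.026) in siEhd1 cells, and Mrpl24 of -0.19 (adjusted p = 0.027) in siControl cells. In siEhd1 cells Mrpl33 was not called in 9 of the 19 alternative fits, namely DESeq2, no low count filter, the replicate number as a block, and without resting siControl replicate 2, resting siEhd1 replicate 1 or 3, LPS-treated siControl replicate 2 or LPS-treated siEhd1 replicate 1 or 3 (adjusted p of 0.00015 to 0.22 over all settings). Mrps26 was not called in 5, namely DESeq2, no low count filter, and without resting siEhd1 replicate 2 or 3 or LPS-treated siEhd1 replicate 2 (3.8e-05 to 0.091). In siControl cells Mrpl24 was not called in 5, namely DESeq2 and without resting or LPS-treated siControl replicate 1 or 2 (0.00024 to 0.13). Of the fallen members, Mrps6 kept its call under all 19 alternative settings in both. In siEhd1 cells only 1 member was called lower with DESeq2, without a low count filter, or without resting siEhd1 replicate 3. In siControl cells 1 was called lower with DESeq2, or without LPS-treated siControl replicate 1 or 2 or resting siControl replicate 1.

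How libraries were scaled bore on these counts. With library totals alone, the median log2 fold change of all tested genes was -0.24 in siEhd1 and -0.21 in siControl cells. A typical gene thus held a smaller share of the counts in LPS-treated than in resting libraries. The members' median log2 fold changes were 0.03 in siEhd1 and 0.14 in siControl cells. Under that scaling 20 members were called higher and 13 lower in siEhd1 cells, and 33 higher and 7 lower in siControl cells. Relative to all genes the members stood 0.27 higher in siEhd1 and 0.35 higher in siControl cells. Calls made as higher under all 19 settings numbered 20 in siEhd1 and 33 in siControl cells, with Mrpl52, Mrpl45, Mrpl20, Mrps10, Mrps11, Mrps18b, Mrps7, Mrps28, Mrpl18 and Mrpl12 among them in both.

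**Figure D3:**
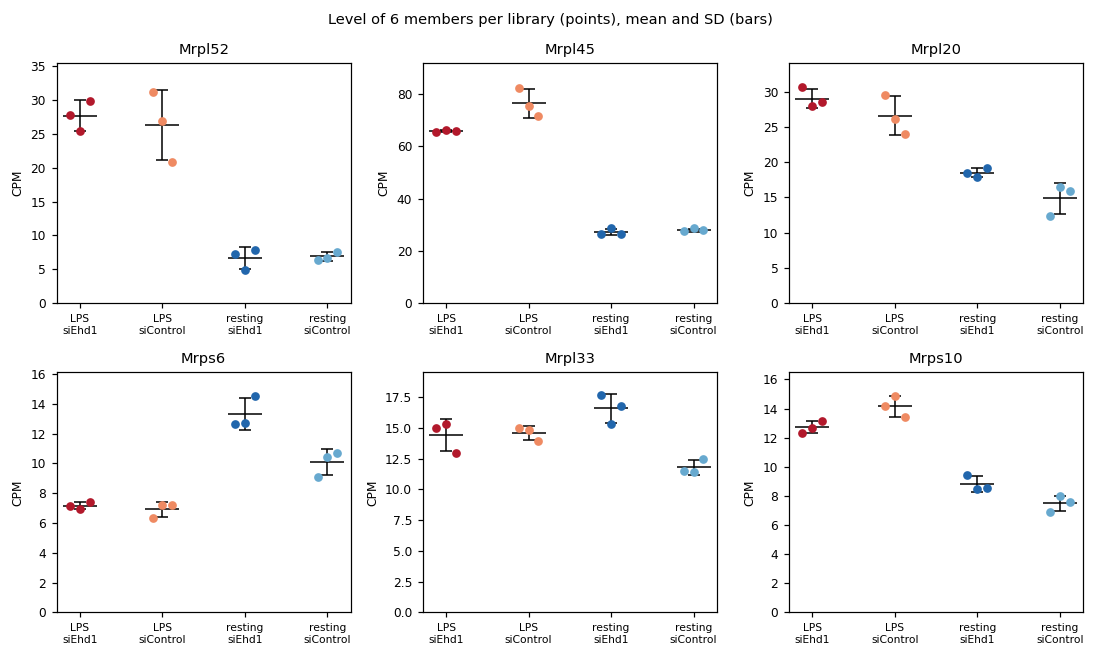
CPM of 6 members in each library (points) with the mean and SD of the 3 libraries (bars), in LPS-treated siEhd1, LPS-treated siControl, resting siEhd1 and resting siControl cells. Mrpl52, Mrpl45, Mrpl20 and Mrps10 are higher in every LPS-treated library than in any resting one, Mrps6 is lower, and Mrpl33 is highest in resting siEhd1 cells.

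Silencing of Ehd1 at rest was accompanied by small rises in a minority of the members. In resting cells 12 members were called higher with siEhd1 and 0 lower, 8 of the large and 4 of the small subunit, against 14% of all tested genes higher and 14.2% lower. The share called higher, 15.6%, was near that of all genes. For the 0 called lower, 1 member had an unadjusted p under 0.05, and DESeq2 and limma-voom also called 0. Log2 fold changes were positive for 60 of the 77 members, or 77.9%, against 47.3% of all genes, with a median of 0.12 against -0.02. The median was 0.12 for the large and 0.10 for the small subunit.

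Mrpl33, the homologue of a small bacterial large subunit protein, had the largest rise. Resting siEhd1 libraries held 17.7, 15.4 and 16.8 CPM, and resting siControl libraries 11.5, 11.4 and 12.5 CPM. The groups did not overlap. Its log2 fold change was 0.49 ± 0.0843 (SE, adjusted p = 1.8e-04). Mrps6 measured 12.6, 12.7 and 14.5 CPM in resting siEhd1 and 9.07, 10.4 and 10.7 CPM in resting siControl libraries, which did not overlap, with a log2 fold change of 0.40 ± 0.0938 (SE, adjusted p = 0.0031). The overlapping Slc5a3 had -0.27 in the same comparison.

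Further members that rose at rest were Mrpl54 (log2 fold change 0.34, adjusted p = 0.029), Mrpl20 (0.31, adjusted p = 0.020), Mrps25 (0.31, adjusted p = 0.012), Mrpl3 (0.24, adjusted p = 0.019), which descends from a bacterial protein close to the peptidyl transferase centre, and Mrps26 (0.23, adjusted p = 0.024). Mrps25 had 16.1, 15.5 and 15.8 CPM in resting siEhd1 and 12.5, 14.4 and 11.4 CPM in resting siControl libraries. Mrpl20 had 18.5, 17.9 and 19.1 CPM in resting siEhd1 and 12.4, 16.4 and 15.9 CPM in resting siControl libraries, again without overlap. The stalk protein Mrpl12 also rose (0.25, adjusted p = 0.027), as did Mrps18c (0.24, adjusted p = 0.024). Mrps28 had a log2 fold change of 0.38 but did not pass the test (adjusted p = 0.087).

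Of the 12 calls, those of Mrpl33 and Mrps6 were made under all 21 alternative settings, and that of Mrps25 under all but the one without resting siControl replicate 3 (adjusted p = 0.069, and 0.0037 to 0.069 over all settings). The count fell to 3 without resting siEhd1 replicate 1, to 6 without resting siEhd1 replicate 3 and to 4 without resting siControl replicate 1, and was 20 with library totals alone. Over all tested genes, 1704 were called higher in the main fit. In the fits just named, in the same order, 1311, 1565, 1201 and 2005 genes were called higher. Cell cycle markers moved in the same comparison: all 20 were called higher with siEhd1, and their summed level was 1146 to 1368 CPM in resting siEhd1 libraries against 511 to 697 CPM in resting siControl libraries, with none at 0. The summed osteoclast markers, of which 1 of 9 was at 0 in each group, were 558 to 638 CPM in resting siEhd1 and 443 to 549 CPM in resting siControl libraries. Of the 10 macrophage markers 6 were called lower with siEhd1 at rest, and their sums, 20160 to 21540 CPM in resting siEhd1 against 24230 to 24920 CPM in resting siControl libraries, did not overlap, with none at 0. The part of these markers in the members' values was not tested.

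**Figure D4:**
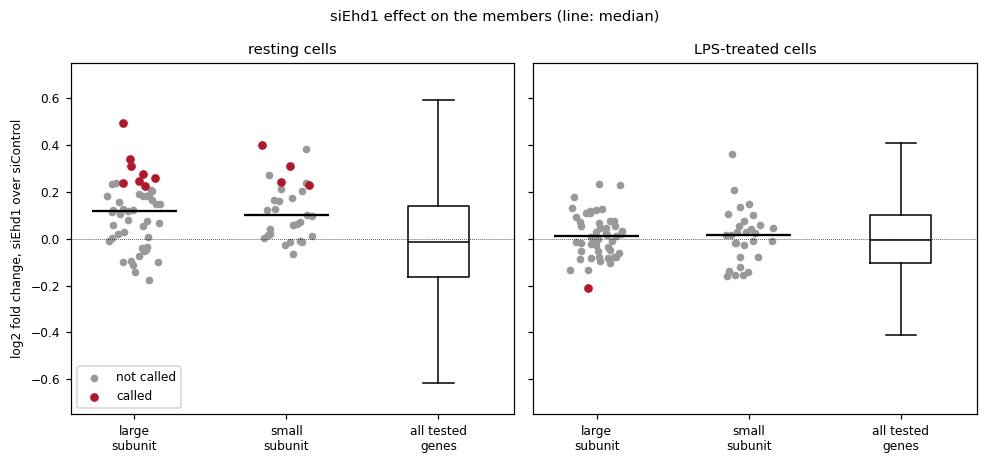
Log2 fold change of siEhd1 over siControl for each large and small subunit gene (points, red where called, line at the median) and for all tested genes (box at the quartiles, whiskers to 1.5 times the quartile range), in resting and in LPS-treated cells. The members lie mostly above 0 at rest, with medians of 0.12 and 0.10, and centre near 0 with LPS.

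In LPS-treated cells, Ehd1 silencing changed 1 member. Among LPS-treated cells 0 members were called higher and 1 lower with siEhd1, against 4.44% of all tested genes higher and 4.1% lower. For the 0 called higher, 4 members had an unadjusted p under 0.05, and DESeq2 and limma-voom also called 0. The median log2 fold change was 0.01 over the members and 0.00 over all genes, and 41 of 77 values were positive. Mrpl45 was the member called lower: LPS-treated siEhd1 libraries held 65.5, 66.3 and 66.1 CPM, below the 82.3, 75.4 and 71.6 CPM of LPS-treated siControl libraries, with a log2 fold change of -0.21 ± 0.0564 (SE, adjusted p = 0.022). The call was lost in a fit of the 6 LPS-treated libraries alone (adjusted p = 0.06), with a replicate block within each state, and on leaving out any 1 of the 6 except siControl replicate 3, with adjusted p over all settings of 0.0096 to 0.11. In resting cells Mrpl45 had a log2 fold change of -0.04. Marker genes moved with siEhd1 under LPS as well. Of 20 cell cycle markers 15 were called higher, and of 7 osteoclast markers tested 3 were called higher. Of 10 macrophage markers 2 were called lower. The part of these markers in the members' values was not tested.

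The test of the difference, the siEhd1 effect with LPS minus that at rest, called 1 member lower and 0 higher, against 2.93% of all tested genes lower and 3.12% higher. For the 0 called higher, 0 members had an unadjusted p under 0.05, and DESeq2 and limma-voom also called 0, whereas 10 members had an unadjusted p under 0.05 in the lower direction. The called member was Mrpl33, with a log2 difference of -0.51 ± 0.121 (SE, adjusted p = 0.014). With LPS it measured 15.03, 15.3 and 13.0 CPM in siEhd1 and 15.04, 14.8 and 14.0 CPM in siControl libraries, which overlapped, with a log2 fold change of -0.01 (adjusted p = 0.95). The same contrast is the LPS effect in siEhd1 cells minus that in siControl cells, where Mrpl33 had -0.20 in siEhd1 and 0.31 in siControl cells. Without resting siEhd1 replicate 1 the adjusted p was 0.051 and no member was called, and without resting siControl replicate 3 there were 2, with adjusted p of Mrpl33 over all settings of 0.0091 to 0.051. The median difference was -0.11 over the members and 0.00 over all genes.

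Mitochondrial ribosomal proteins with other names mostly rose with LPS too. Of 5 such subunits, 4 rose and 1 fell in siEhd1 cells, and 4 rose in siControl cells. Over all tested genes 32.9% were called higher in siEhd1 and 34.8% in siControl cells. Dap3, a GTP-binding small subunit protein also known as a death-associated protein, averaged 35.0 CPM with LPS and 26.4 CPM at rest in siEhd1 cells, and 37.2 CPM with LPS and 25.7 CPM at rest in siControl cells, with log2 fold changes of 0.41 in siEhd1 (adjusted p = 1.3e-05) and 0.53 in siControl cells (adjusted p = 3.3e-07). Chchd1 rose by 0.53 in siEhd1 and 0.64 in siControl cells, Gadd45gip1, a large subunit protein near the exit of the tunnel, by 0.51 in siEhd1 and 0.47 in siControl cells, and Aurkaip1 by 0.32 in siEhd1 and 0.29 in siControl cells, on the log2 scale. The pentatricopeptide protein Ptcd3 fell by 0.29 on the log2 scale in siEhd1 cells (adjusted p = 0.0050) and had a log2 fold change of -0.02 in siControl cells (adjusted p = 0.84). Ict1, listed by RefSeq under the synonym Mrpl58 and known as a peptidyl-tRNA hydrolase of the large subunit, rose by 0.24 in siEhd1 (adjusted p = 0.031) and by 0.36 in siControl cells (adjusted p = 0.003). Ict1 was not called in siEhd1 cells by DESeq2, nor without resting siEhd1 replicate 2 or LPS-treated siEhd1 replicate 2 or 3 (adjusted p of 0.064 to 0.12 in these 4 fits, where the call was made in the other fits except that with library totals). With library totals alone, Ict1 and Aurkaip1 were called in neither, Ptcd3 was also called lower in siControl cells, and Gabpb1, described further on, was not called in siEhd1 cells.

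Genes that assemble or serve the mitochondrial ribosome did not share one direction. Of 25 assembly factors tested, 4 rose and 7 fell with LPS in siEhd1 cells, and 7 rose and 3 fell in siControl cells, with median log2 fold changes of -0.02 in siEhd1 and 0.01 in siControl cells. These are 16% higher and 28% lower in siEhd1 cells, and 28% higher and 12% lower in siControl cells. Over all tested genes 32.9% were higher and 34% lower in siEhd1 cells, and 34.8% higher and 34% lower in siControl cells. Trub2, a pseudouridine synthase, rose by 0.53 in siEhd1 and 0.59 in siControl cells on the log2 scale. Mettl17, a small subunit assembly factor, fell by 0.62 in siEhd1 and by 0.58 in siControl cells, and Rbfa, which matures the small subunit RNA, fell by 0.48 in siEhd1 and by 0.27 in siControl cells. Of 19 translation factors and related genes, 6 rose and 2 fell in siEhd1 cells (31.6% and 10.5%), and 6 rose and 4 fell in siControl cells (31.6% and 21.1%). Their shares called higher were thus near those of all genes. The elongation factor Tufm averaged 66.2 CPM with LPS and 49.9 CPM at rest in siEhd1 cells, and 66.4 CPM with LPS and 50.5 CPM at rest in siControl cells. Guf1, the mitochondrial homologue of a bacterial elongation factor, fell by 0.92 in siEhd1 and by 0.88 in siControl cells.

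Of 15 genes for mitochondrial DNA maintenance and transcription, 2 rose and 5 fell with LPS in siEhd1 cells (13.3% and 33.3%). In siControl cells 2 rose and 6 fell (13.3% and 40%). Over all tested genes 32.9% were higher and 34% lower in siEhd1 cells, and 34.8% higher and 34% lower in siControl cells. Peo1, the mitochondrial DNA helicase, fell by 0.60 in siEhd1 and by 0.63 in siControl cells on the log2 scale. Among 10 regulators of mitochondrial biogenesis, 5 rose and 2 fell in both (50% and 20%). The coactivator Ppargc1b averaged 10.2 CPM with LPS and 3.57 CPM at rest in siEhd1 cells, and 8.04 CPM with LPS and 2.77 CPM at rest in siControl cells, with log2 fold changes of 1.51 in siEhd1 (adjusted p = 4.8e-09) and 1.54 in siControl cells (adjusted p = 1.0e-08). Its partner Esrra rose by 0.67 in siEhd1 and 0.61 in siControl cells, and Gabpb1, a subunit of the ETS factor GABP, by 0.26 in siEhd1 and 0.57 in siControl cells. Myc, a growth regulator that also acts on mitochondrial genes, fell by 2.76 in siEhd1 and by 2.21 in siControl cells, on the same scale.

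**Figure D5:**
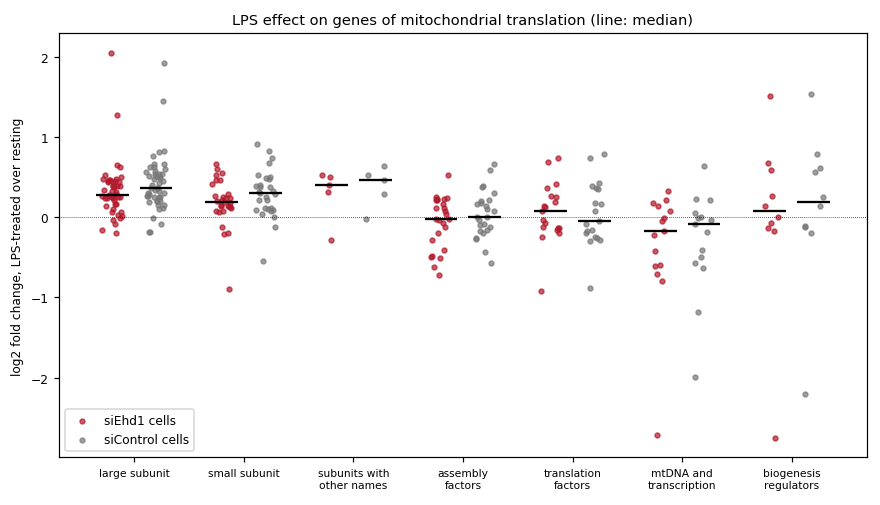
Log2 fold change of LPS-treated over resting cells for the genes of 7 lists (points, line at the median), in siEhd1 cells (red) and siControl cells (grey). Both subunits and the subunits with other names lie mostly above 0, whereas the medians of assembly factors are -0.02 and 0.01.

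With siEhd1 at rest, few genes of these lists passed the test. Of the assembly factors 4% were called higher and 4% lower, against 14% and 14.2% of all tested genes. The assembly GTPase Mtg2 fell by 0.29 on the log2 scale (adjusted p = 0.019), Fastkd2, which binds the large ribosomal RNA, rose by 0.27 (adjusted p = 0.038), and Polg, the mitochondrial DNA polymerase, fell by 0.24 (adjusted p = 0.0065). Myc averaged 13.9 CPM in resting siEhd1 and 7.24 CPM in resting siControl cells, with a log2 fold change of 0.94 (adjusted p = 0.0022). With LPS, Ybey, an endoribonuclease of small subunit RNA maturation, fell by 0.60 with siEhd1 (adjusted p = 0.033), at 2.30 CPM in siEhd1 and 3.49 CPM in siControl cells. Of these, Myc was called under every setting, with adjusted p up to 0.013. Polg missed without resting siControl replicate 1 (adjusted p = 0.051, and 0.0035 to 0.051 over all settings), as did Mtg2 without that library or resting siEhd1 replicate 1 or 2 (0.015 to 0.088). Fastkd2 was not called in 8 of the 21 alternative fits, namely DESeq2, no low count filter, either replicate block, and without resting siControl or siEhd1 replicate 1 or 2 (adjusted p of 0.014 to 0.19 over all settings). Ybey was not called in 9 of 21, namely DESeq2, limma-voom, a replicate block within each state, the 6 LPS-treated libraries alone, and without any 1 of the LPS-treated libraries other than siControl replicate 3 (0.021 to 0.14).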

How the data were processed

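Poly(A)-selected RNA from 12 libraries of bone marrow-derived macrophages, 3 in each of 4 groups, was deposited as gene counts in 2 tables, 1 for each state, and no column was left unused (0). For these whole-number counts the authors name, per the submitters' processing notes, build mm10, the aligner STAR 2.7.6a, the counter featureCounts 2.20.0, the trimmers Trim Galore 0.6.3 and cutadapt, FastQC 0.10.1, and R 4.4.2 with DESeq2 1.46.0. Which annotation and strand setting were used is not given in the sources used here, so reads from overlapping genes cannot be assigned with certainty: 32 of the 77 members share exon bases with another gene.

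Counts were joined by gene and fitted in 1 model of the 4 group means with edgeR 4.0.16 in R 4.3.3 (filterByExpr with a minimum count of 10, TMM scaling, robust quasi-likelihood F test); p-values were adjusted by Benjamini and Hochberg's method across all 12164 genes that passed the filter, and calls were made under 0.05. Every adjusted p in the text comes from that fit unless another is named, and a standard error is the log2 fold change divided by the root of its F value. CPM were computed here from the counts and the TMM-scaled library sizes. Sums and ratios of the subunits were taken per library and given no test. The procedure was tested on simulated counts in which a small part of the genes was changed, only in the LPS-treated siEhd1 libraries. No broad LPS effect was simulated, so that run does not bear on the scaling between the states. Annotation was read from GENCODE on GRCm38, and promoter windows from RefSeq on GRCm38.p6.

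Named members were those with the smallest p or largest change among the called ones of each comparison, the highest and lowest levels per kilobase in each subunit, and a fixed set with unusual assignments; from each other list, up to 4 called genes with the smallest p. Members, lists and this rule were chosen with earlier results of these data known. Alternatives were DESeq2 1.42.0, limma 3.58.1 with voom, RLE size factors, library totals alone, 2 other filters, fits of 1 state, replicate numbers as a block, and leaving out each of the 12 libraries.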

Additional observations from a re-analysis of the deposited data

Results flagged for a closer look

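The siEhd1 effect on Mrpl33 differed between LPS-treated and resting cells by -0.5073 on the log2 scale (edgeR's test of the difference, adjusted p = 0.014). It was -0.01 with LPS and 0.49 at rest, and all 3 resting siEhd1 libraries lay above all 3 resting siControl libraries, whereas the LPS-treated libraries overlapped. Without resting siEhd1 replicate 1 the adjusted p was 0.051, and over all settings it ranged from 0.0091 to 0.051.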

How the results depend on the processing

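Counts of called members moved most with the scaling and with single libraries, and the cause was not tested. With library totals alone, 20 members were called higher with siEhd1 at rest, as were 2005 of all tested genes. For LPS, 20 members were then called higher and 13 lower in siEhd1 cells, and 33 higher and 7 lower in siControl cells. Over all tested genes these numbers were 2499 higher and 6244 lower in siEhd1 cells, and 2826 higher and 5860 lower in siControl cells. In siEhd1 cells the LPS effect on Mrps18a turned to -0.01922 and that on Polg to -0.01291. Members called lower with LPS numbered 1 in siEhd1 and 1 in siControl cells with DESeq2, and 1 in siEhd1 cells without a low count filter. Mrpl45 under LPS was lost (0 called) with a replicate block within each state and with the 6 LPS-treated libraries alone. Leaving out each library in turn gave 3 to 14 members higher with siEhd1 at rest, 0 to 1 lower with LPS, and 0 to 2 lower in the test of the difference. Over all tested genes the number called higher with siEhd1 at rest then ran from 1201 to 1868. Leaving out each library gave 1 to 3 members lower with LPS in siEhd1 and 1 to 3 in siControl cells. The difference between the subunits' medians then ranged from 0.0672 to 0.153 for LPS in siEhd1 cells, 0.0479 to 0.182 in siControl cells, and -0.0353 to 0.0422 for the difference of the siEhd1 effects. The LPS difference in the ratio of sums was 0.142 without Mrpl52, 0.0693 without Mrpl52 and Mrpl45, and 0.204 by structural assignment, and with library totals the LPS differences in summed CPM were 70.8 (large) and -9.47 (small) in siEhd1 and 144.2 (large) and 31.7 (small) in siControl cells, choices made after seeing the data. The other 276 summary values stayed within a set margin. For counts this was a fixed factor, and for differences between the subunits' medians it was the pooled SD of that value over libraries. Small differences could change sign within it. That for siEhd1 over siControl at rest ran from -0.0054 to 0.0253 on leaving out each library in turn. Of the single-gene values 2796 kept their side of the threshold, 89 lost their call and 22 gained one. Deviations from the group mean correlated at -0.167 to 0.251 between same-numbered libraries and at -0.198 to 0.274 between differently numbered ones. Resting siEhd1 replicates 1, 2 and 3 had positive values with resting siControl replicates 2, 3 and 1 (0.214, 0.274 and 0.214), and negative values with the others. Whether libraries are paired is not given in the labels, and correlations over 3 libraries a group cannot settle it. With the number as a replicate block common to the groups, the members called higher with siEhd1 at rest were 11, and 9 with a block within each state. Over all tested genes 1595 were called higher with the common block and 1463 with the block within each state. Each member had 56 or more counts in every library, and 3 libraries a group limit which small effects can be called.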

Other observations

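Some members overlap other genes, and the counts do not tell whose reads are whose. The 32 members that share exon bases with another gene had a median LPS effect, as log2 fold change, of 0.24 in siEhd1 and 0.31 in siControl cells, and the 45 that share none had 0.26 in siEhd1 and 0.38 in siControl cells. For siEhd1 over siControl at rest the medians were 0.14 for the 32 and 0.10 for the 45. Of Mrps25, 69.8% of the exon bases are shared with Nr2c2 on the opposite strand. Mrpl53 shares 88% with Gm42688 on the same strand, a gene that is absent from the count tables. Mrps34 shares 63.4% with Mapk8ip3 on the opposite strand and 37% with Nme3 on the same strand.

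A word of 7 bases, GCCTTGT, which an earlier look at these data had found often in the 3′ UTRs of genes lower with siEhd1 at rest, was present in 14.5% of the members with an annotated 3′ UTR (11 of 76) and in 14.5% of all tested genes with one. At rest, the siEhd1 effect had a median of 0.10 over those 11 members and 0.12 over the members without the word, against -0.09 over all genes with it and 0.00 over all genes without it, as log2 fold changes. Because the word was picked from this same comparison, a lower value over all genes with it was built into the choice and is no independent result. With LPS the medians were -0.04 for the 11 members and 0.01 for the members without it, against -0.06 over all genes with it and 0.01 over all genes without it.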
